A study of Mus musculus with 6 samples.

Results

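Genes of fatty acid and triglyceride synthesis and of lipid droplets were followed in mouse liver, as 35 genes named in a list that runs from transcription factors to lipases, among 34781 gene names on the array. All probes carrying 1 of these gene names were taken, which gave 54 probes. Of the 35 genes, 33 were detected above background in every mouse of one or both groups and were tested, with 17068 genes tested in all. The tested mice were 3 C57BL6/J mice given 250 mg/kg of a compound that the labels name only as CBZ, by mouth, and the mice they were set against were 3 C57BL6/J mice given dimethyl sulfoxide (DMSO), a solvent, by mouth. All 6 mice were killed 2 h after dosing, and RNA of the whole liver was measured with 1 single-colour Agilent array per mouse. The labels give neither sex nor age, neither genotype nor fasting state, and do not say whether the CBZ was dissolved in DMSO.

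In liver, citrate leaving the mitochondria is cleaved to acetyl-CoA, carboxylated to malonyl-CoA and built into palmitate, which is then elongated, desaturated and esterified to glycerol. The triglyceride is stored in droplets coated by perilipins, released by lipases, or exported in lipoproteins. The transcription factor SREBP-1c, encoded by Srebf1 and driven by insulin, and the carbohydrate-responsive factor ChREBP, encoded by Mlxipl, are the known activators of this programme after a meal.

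Signals are given as log2 of the processed signal over the array's 75th percentile, so that 0 is the 75th percentile and 1 unit is a doubling. Each gene is shown by its brightest probe, fold changes are CBZ minus DMSO with the moderated standard error (SE) of limma, and a gene was called at a Benjamini-Hochberg adjusted p under 0.05 over all probes kept. Hepatocyte markers were all measured, 8 of 8, and their summed relative signal was 5434 to 6199 in CBZ livers and 5382 to 5813 in DMSO livers. Detected spots made up 42.6% to 45.8% of each array, no spot was saturated, and pairs of arrays correlated with r of 0.988 to 0.994 across probes, which are not independent. All arrays lay on 1 slide, where CBZ replicate 1 and the 3 DMSO arrays shared row 1 and CBZ replicates 2 and 3 lay in row 2. Precision is set by there being 3 mice a group.

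No member was called in either direction. The limma call was made for 0.0469% of all genes tested as higher in CBZ (8 genes) and for 0.00586% as lower (1 gene). At an unadjusted limma p under 0.05, 7 of the 33 members were higher in CBZ and 1 was lower, where 5.00% and 3.96% of all genes tested were. The 7 became 3 with scaling by the array median, 4 with the slide row as a covariate and 13 without DMSO replicate 1, where 1.42%, 3.05% and 4.97% of all genes tested were higher. The values of the 2 groups did not overlap for 8 members that were higher in CBZ and for 1 that was lower, where 6.27% and 6.65% of all genes tested did not. Pnpla3, which passed the filter through the CBZ group, is among both the 7 and the 8. With the filter on all 6 arrays, which left Pnpla3 out, each of these counts was 7 of 32 members. The shares of all genes were 4.65% and 5.88% there. The log2 fold change was above 0 for 25 of the 33 members, against 49.2% of all genes tested, and its median was 0.17 over the members and -0.0042 over all genes tested. The member median was 0.086 without DMSO replicate 3 and 0.11 without DMSO replicate 2. Under scaling by the array median the members above 0 numbered 18 of 33 and their median was 0.066, with the median of all genes at -0.10. With the slide row as a covariate, which sets CBZ replicate 1 against the DMSO mice, they numbered 24 of 33 with a median of 0.17. Members were chosen with earlier results of these data known, so these counts beside the shares of all genes are a description, not a test.

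**Figure D1:**
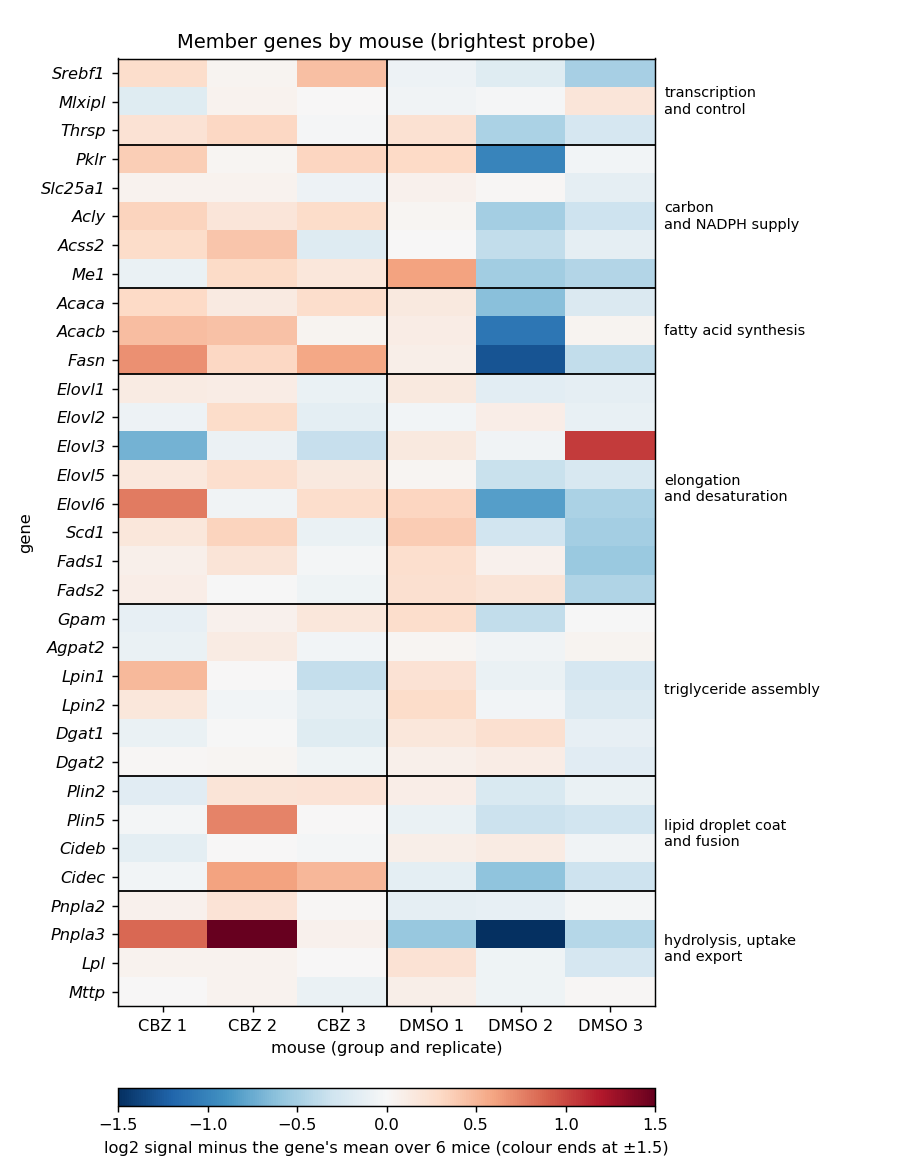
Log2 signal of the 33 tested members in each mouse (columns, 3 CBZ then 3 DMSO), as the difference from the gene's mean over the 6 mice, with genes in rows grouped by pathway step. The darkest blue cells of the supply and synthesis steps lie in DMSO replicate 2, and Elovl3 is high in DMSO replicate 3.

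Of the 2 transcription factors, Srebf1 had groups that did not overlap and Mlxipl did not. Srebf1, whose probe lies at chr11:60012664-60012723 (mm9, minus strand), measured 2.99, 2.77 and 3.18 in the CBZ livers and 2.66, 2.54 and 2.23 in the DMSO livers. All CBZ mice lay above all DMSO mice, by 0.50 ± 0.17 (SE, n = 3 mice each; limma adjusted p = 0.371). Mlxipl averaged 6.88 ± 0.12 in CBZ livers and 6.95 ± 0.13 in DMSO livers (SD, n = 3 each), a log2 fold change of -0.08 with a 95% interval of -0.38 to 0.23. Thrsp, a lipogenic regulator that responds to thyroid hormone and carbohydrate, averaged 9.13 ± 0.17 in CBZ livers and 8.80 ± 0.36 in DMSO livers, with overlapping groups. Its log2 fold change of 0.34 was 0.18 without DMSO replicate 2 and 0.53 without DMSO replicate 1.

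The enzymes that supply carbon and NADPH all had log2 fold changes above 0, 5 of 5, with a median of 0.33. Acly, which cleaves citrate to acetyl-CoA, measured 6.54, 6.39 and 6.48 in the CBZ livers and 6.23, 5.70 and 5.89 in the DMSO livers. The groups did not overlap, and the log2 fold change was 0.53 ± 0.16 (SE, n = 3 each; limma adjusted p = 0.330). Pklr, the liver pyruvate kinase, differed by 0.48, but by 0.11 without DMSO replicate 2, which was its lowest mouse at 1.62, and by 0.75 without DMSO replicate 1. Acss2, which makes acetyl-CoA from acetate, differed by 0.33, or by 0.20 without CBZ replicate 2 and 0.51 without CBZ replicate 3. Slc25a1, the mitochondrial citrate carrier, differed by 0.03 (95% interval -0.26 to 0.32), or by -0.071 with scaling by the array median. Me1, the NADPH-producing malic enzyme, differed by 0.24 at its brightest probe, where the groups overlapped, and by 0.55 at both further probes, where they did not. Its brightest probe gave 0.04 without DMSO replicate 2 and 0.60 without DMSO replicate 1.

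Fatty acid synthesis had the largest median of the 7 steps, 0.62 over its 3 genes, which is the value of Acacb. All 3 log2 fold changes were smaller without DMSO replicate 2, and the order of the steps without that mouse is not given. Fasn, the synthase that makes palmitate, measured 3.15, 2.78 and 3.06 in the CBZ livers and 2.56, 1.18 and 2.11 in the DMSO livers. The CBZ mice lay close together and above all DMSO mice, among which replicate 2 was far the lowest. The log2 fold change was 1.05 ± 0.31 (SE, n = 3 each; limma adjusted p = 0.318), and 0.66 without DMSO replicate 2. Acacb, the acetyl-CoA carboxylase that regulates fatty acid oxidation, measured 6.03, 6.0 and 5.61 in the CBZ livers and 5.68, 4.48 and 5.61 in the DMSO livers. The groups overlapped, and the log2 fold change of 0.62 ± 0.30 was 0.23 without DMSO replicate 2. Acaca, the carboxylase that makes malonyl-CoA for synthesis, measured 5.63, 5.46 and 5.59 in the CBZ livers and 5.47, 4.70 and 5.11 in the DMSO livers. DMSO replicate 1 lay within the CBZ range, and the log2 fold change was 0.47 ± 0.19 (limma adjusted p = 0.50), or 0.27 without DMSO replicate 2.

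A further Acaca probe gave 0.48, but it shares 55 bases with the brightest one, so both are nearly 1 measurement. Their last 30 bases are shown because the array file places one on chromosome 11 and the other on chromosome 12; capitals mark the bases after the shared run.
Acaca brightest probe: tgttgaaataaacctccacatttgtaGAAG
Acaca further probe: gttgaaataaacctccacatttgtaAAAAA
Both remaining Acaca probes are placed elsewhere on chromosome 11. One gave 0.52 with groups that did not overlap, and the other, detected in 2 of 3 DMSO mice, gave 0.06 with overlap. No member probe shared a run of 20 bases with a probe of another gene.

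**Figure D2:**
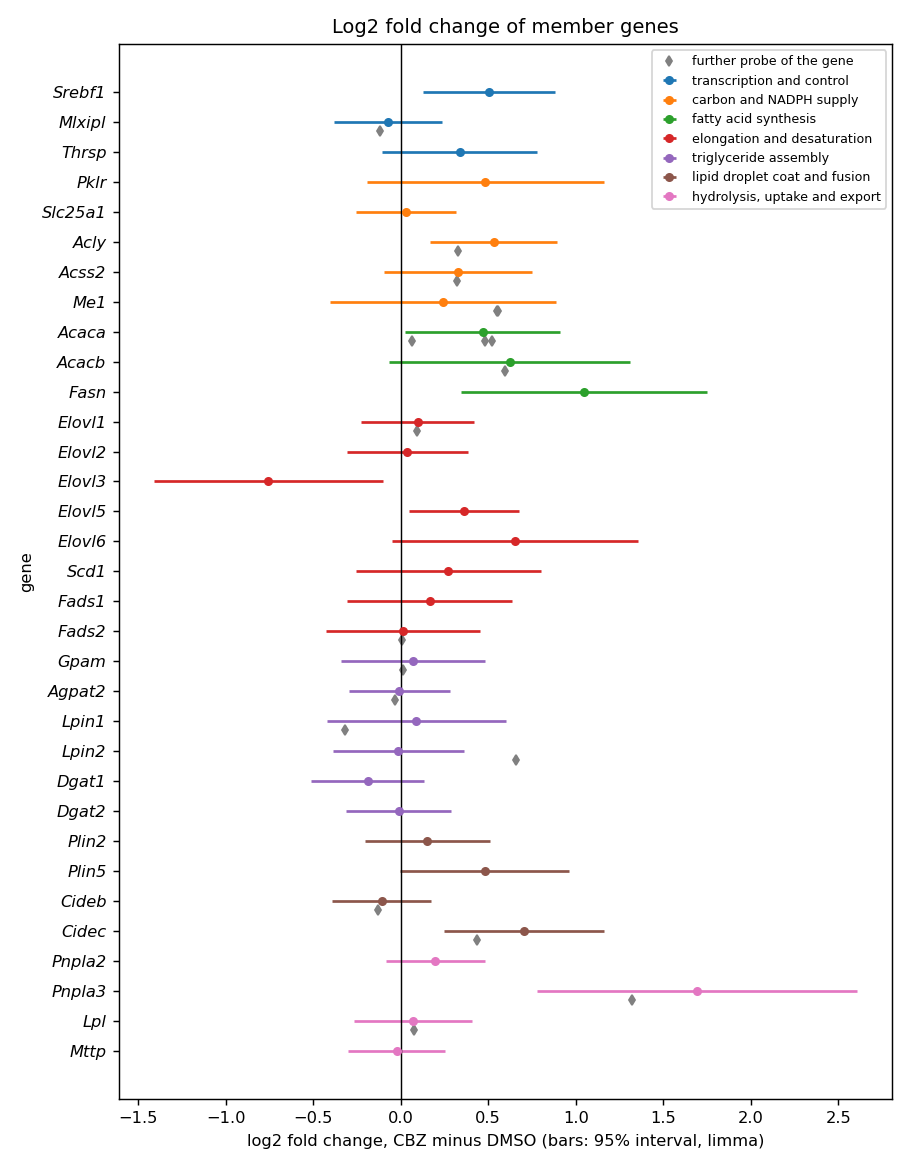
Log2 fold change (CBZ minus DMSO, x axis) of the 33 tested members by gene (y axis), with 95% limma intervals over 3 mice a group, coloured by pathway step. Grey diamonds are further probes of the same gene; Pnpla3, Fasn and Cidec lie farthest right and Elovl3 farthest left.

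Among elongases and desaturases, 7 of 8 had a log2 fold change above 0, and Elovl3 was the exception. With scaling by the array median, Elovl1, Elovl2 and Fads2 were also below 0, at -0.0041, -0.063 and -0.087. The median of all genes was -0.10 there. Elovl3, an elongase of saturated and monounsaturated very-long-chain fatty acids, measured 2.71, 3.34 and 3.07 in the CBZ livers and 3.56, 3.36 and 4.46 in the DMSO livers. The groups were only just separate, with CBZ replicate 2 a little below DMSO replicate 2. The log2 fold change was -0.76 ± 0.29 (SE, n = 3 each; limma adjusted p = 0.444), and -0.42 without DMSO replicate 3. Elovl6, which elongates palmitate to stearate, measured 5.37, 4.53 and 4.85 in the CBZ livers and 4.92, 3.76 and 4.12 in the DMSO livers. Its groups overlapped, and its log2 fold change of 0.65 ± 0.31 was 0.40 without DMSO replicate 2 and 0.43 without CBZ replicate 1. With the slide row as a covariate, it was 1.10.

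Elovl5, which elongates polyunsaturated fatty acids, measured 4.71, 4.8 and 4.69 in the CBZ livers and 4.58, 4.22 and 4.32 in the DMSO livers, without overlap. The log2 fold change was 0.36 ± 0.14 (SE, n = 3 each; limma adjusted p = 0.453). Scd1, the desaturase that makes oleate, measured 8.40, 8.58 and 8.14 in the CBZ livers and 8.62, 7.95 and 7.73 in the DMSO livers, and DMSO replicate 1 was the highest mouse. Its log2 fold change was 0.27 ± 0.23, with values of 0.09 without DMSO replicate 3 and 0.53 without DMSO replicate 1. The desaturases Fads1 and Fads2 differed by 0.17 and 0.01, and the elongases Elovl1 and Elovl2 by 0.10 and 0.04, each with overlapping groups.

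The enzymes that assemble triglyceride had a median log2 fold change of -0.01 over 6 genes, with 2 of 6 above 0, and their difference from the synthesis enzymes was not tested. Those 2, Gpam and Lpin1, were at -0.030 and -0.010 with scaling by the array median. Gpam, which makes the first acylation of glycerol phosphate, measured 0.79, 0.98 and 1.09 in the CBZ livers and 1.18, 0.55 and 0.92 in the DMSO livers. Dgat2, which makes the last acylation, measured 8.61, 8.61 and 8.52 in the CBZ livers and 8.66, 8.70 and 8.41 in the DMSO livers. Both pairs of groups overlapped, and the 95% intervals of the log2 fold change were -0.34 to 0.48 for Gpam and -0.31 to 0.29 for Dgat2. Dgat1, the other acyltransferase of that step, differed by -0.19 (95% interval -0.51 to 0.13) and Agpat2, the second acyltransferase of the pathway, by -0.01 (-0.30 to 0.28). The phosphatidate phosphatases Lpin1 and Lpin2 were the 2 genes whose further probe had the opposite sign to the brightest. Lpin1 gave 0.09 and -0.32, and Lpin2 gave -0.01 and 0.66, with overlapping groups at all 4 probes. The brightest Lpin1 probe gave 0.54 with the slide row as a covariate and -0.13 without CBZ replicate 1. Mogat1, a monoacylglycerol acyltransferase, was not well above background on any array.

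At the droplet, the perilipin of oxidative tissues Plin5 measured 6.78, 7.55 and 6.81 in the CBZ livers and 6.70, 6.48 and 6.52 in the DMSO livers. The groups did not overlap, but CBZ replicate 2 stood well above the other CBZ mice, and the log2 fold change of 0.48 ± 0.21 (limma adjusted p = 0.534) was 0.23 without it and 0.22 with the slide row as a covariate. Plin2, the perilipin that coats most hepatocyte droplets, measured 6.20, 6.57 and 6.57 in the CBZ livers and 6.48, 6.14 and 6.27 in the DMSO livers. Its groups overlapped, with a log2 fold change of 0.15 ± 0.16, and of -0.09 with the slide row as a covariate. Cidec, a protein of droplet fusion, measured -0.56, 0.09 and -0.02 in the CBZ livers and -0.66, -1.12 and -0.83 in the DMSO livers. CBZ replicate 1 lay just above the highest DMSO mouse, and the log2 fold change was 0.71 ± 0.20 (SE, n = 3 each; limma adjusted p = 0.305). It was 0.43 at a further probe, 0.39 with normexp background correction and 0.31 with the slide row as a covariate. Cideb, which acts on very-low-density lipoprotein lipidation, differed by -0.11 (95% interval -0.39 to 0.17).

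Cidea, a droplet fusion protein best known from brown fat, was not well above background on any of the 6 arrays. Its signals were -2.24, -2.64 and -2.36 in the CBZ livers and -4.12, -4.07 and -3.80 in the DMSO livers. No fold is given where neither group had an array well above background.

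Adipocyte markers were looked at beside the droplet genes, because whole liver can carry adjoining fat and fat cells express many of the members. Of 7 markers 3 were kept (Cfd, Fabp4 and Lipe), and Adipoq, Lep, Plin1 and Retn were not well above background on all arrays of either group. The summed relative signal was 7.08 to 11.5 in CBZ livers and 5.93 to 8.69 in DMSO livers, with overlapping groups. This sum, on a linear scale, is mostly Fabp4, at log2 values of 2.60 to 3.35 in CBZ livers and 2.34 to 2.86 in DMSO livers. Fabp4 was highest in CBZ replicate 2, but Cfd in CBZ replicate 1 and Lipe in DMSO replicate 3. Cfd differed by 0.82, Fabp4 by 0.44 and Lipe by -0.03, none of them called, and the highest sum was in CBZ replicate 2. In whole-liver RNA, a change in the share of a cell type and a change in RNA per cell cannot be told apart. Macrophage markers summed to 131 to 156 in CBZ livers and 95.3 to 225 in DMSO livers, and stellate cell markers to 189 to 301 in CBZ livers and 202 to 236 in DMSO livers. The highest stellate, hepatocyte and adipocyte sums were in CBZ replicate 2, the mouse that was highest for Plin5, Cidec and Pnpla3. That mouse was the highest for 9 of 33 members and for 22.3% of all genes tested, the largest such share of all genes among the 6 mice. The part of these markers in the values of the droplet genes was not tested.

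Among lipases and transport genes, Pnpla3 showed a wide difference at a probe near background. Pnpla3, a droplet-bound lipase homologue known as an SREBP-1c target, was read by a probe at chr15:84016440-84016499 (mm9, plus strand). It measured -0.38, 0.36 and -1.19 in the CBZ livers and -1.82, -2.78 and -1.68 in the DMSO livers. All CBZ mice lay above all DMSO mice, although both groups spread over more than 1 log2 unit. The log2 fold change was 1.69 ± 0.40 (SE, n = 3 each; limma unadjusted p = 0.0025, adjusted p = 0.219), and it was 0.78 with normexp background correction, where Fasn was at 0.91. The gene passed the filter through the CBZ group, since 3 of 3 CBZ arrays and 2 of 3 DMSO arrays were well above background. Its p-values are therefore given as a description only. At a further probe, no DMSO array was well above background, and the measured signal was 2.5-fold higher in CBZ. The 95% interval of its log2 fold change was 0.60 to 2.04. This probe too passed the filter through the CBZ group, so the interval is a description only. Raising DMSO signals to the array's detection floor did not change this fold. These DMSO signals were not well above background, yet none lay under that floor. The floor therefore cannot show whether the fold is a lower bound. Pnpla3 was called with scaling by the array median, and equally with the authors' table, which is the same scaling, at 1.59 (limma adjusted p = 1.7e-05). The fit there used a variance common to all probes, so that p does not measure Pnpla3's own spread between mice. Pnpla3 was also called with the mean of its probes, at 1.51 (limma adjusted p = 0.0353). Both probes in that mean passed the filter through the CBZ group, so this call is a description only. Over the other settings that kept the probe, the adjusted p was 0.0877 to 0.836, and the filter on all 6 arrays left it out.

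Pnpla2, the adipose triglyceride lipase, measured 3.48, 3.63 and 3.44 in the CBZ livers and 3.28, 3.29 and 3.39 in the DMSO livers. The groups did not overlap, with a log2 fold change of 0.20 ± 0.12 (SE, n = 3 each; limma adjusted p = 0.760), or 0.10 with scaling by the array median. Lpl, the lipase of lipoprotein triglyceride, differed by 0.07 (95% interval -0.27 to 0.41), and Mttp, which loads triglyceride onto apolipoprotein B, by -0.02 (-0.30 to 0.26).

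**Figure D3:**
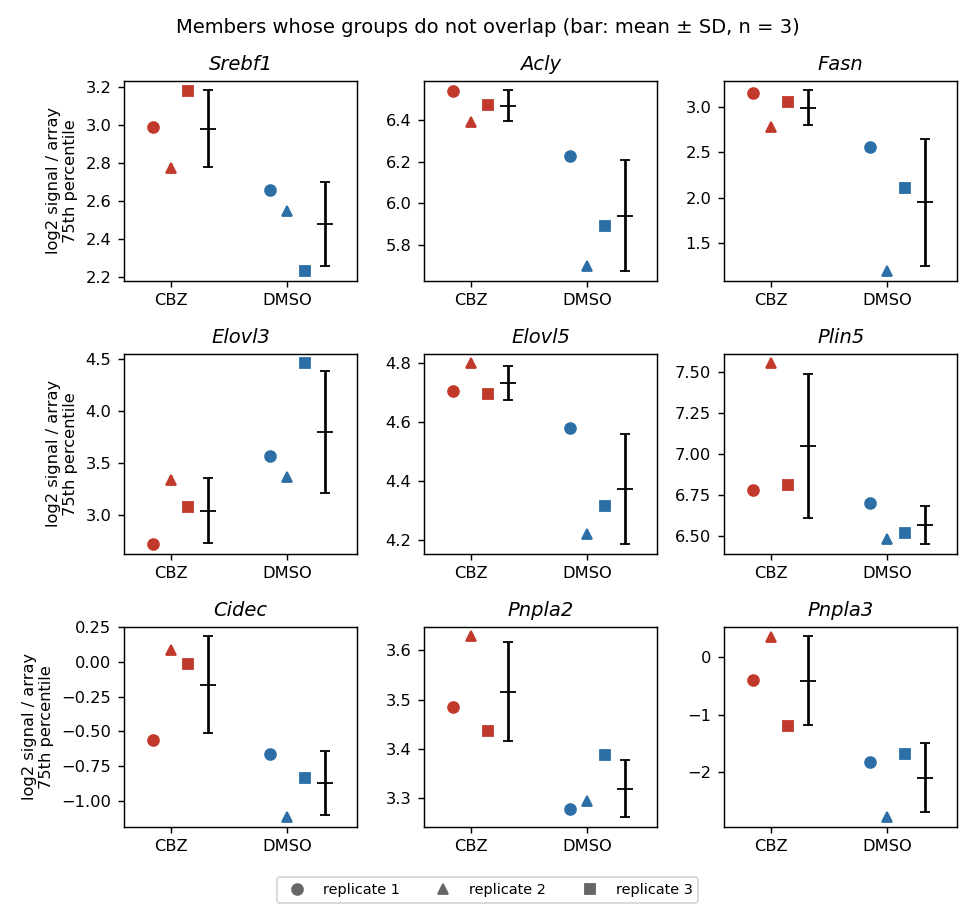
Log2 signal over the array's 75th percentile (y axis, own scale per panel) in CBZ and DMSO mice for the 9 members whose groups do not overlap; symbols mark replicates and bars the mean ± SD (n = 3). In 8 panels all CBZ points lie above the DMSO points, and for Elovl3 all CBZ points are lower.

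RefSeq promoter windows of 300 bases (GRCm38.p6) were found for 28 of the 35 members, in 40 windows, and not for Cidea, Dgat1, Dgat2, Elovl3, Fads1, Lpl and Scd1. On both strands, 3 motifs were searched, without any overlap between different motifs in member windows. The SREBP element TCACNCCAC was found in 1 of 40 member windows (Mlxipl) and in 1.24% of all 32851 windows. The E-box CACGTG was found in 5 of 40 (Elovl5, Lpin2, Mlxipl, Plin2 and Slc25a1) and in 7.15% of all windows. The NF-Y box CCAAT was found in 19 of 40 and in 37.4% of all windows. A match is a description of letters, not of binding. Of the 8 members with a window whose groups did not overlap, 4 are shown as examples, chosen after their values and motif matches were seen. Of those not shown, Srebf1 and Plin5 held CCAAT in some of their windows, and Cidec and Pnpla2 held none of the 3 motifs. The windows of Fasn (chr11:120824498-120824797, minus strand), Acly (chr11:100527951-100528250, minus strand), Elovl5 (chr9:77917115-77917414, plus strand) and Pnpla3 (chr15:84167566-84167865, plus strand) follow, with motif matches on either strand in capitals.
Fasn: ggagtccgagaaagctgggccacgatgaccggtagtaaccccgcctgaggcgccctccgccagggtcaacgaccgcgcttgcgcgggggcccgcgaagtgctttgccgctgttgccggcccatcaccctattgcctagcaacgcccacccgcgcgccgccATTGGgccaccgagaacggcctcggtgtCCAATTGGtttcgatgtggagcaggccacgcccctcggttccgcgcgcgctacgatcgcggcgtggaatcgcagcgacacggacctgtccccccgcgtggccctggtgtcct
Acly: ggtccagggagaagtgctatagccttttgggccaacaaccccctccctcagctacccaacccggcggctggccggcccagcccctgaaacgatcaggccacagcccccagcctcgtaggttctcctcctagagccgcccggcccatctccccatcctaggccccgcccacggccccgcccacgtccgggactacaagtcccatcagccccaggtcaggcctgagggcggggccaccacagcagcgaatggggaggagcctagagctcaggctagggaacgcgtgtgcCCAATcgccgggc
Elovl5: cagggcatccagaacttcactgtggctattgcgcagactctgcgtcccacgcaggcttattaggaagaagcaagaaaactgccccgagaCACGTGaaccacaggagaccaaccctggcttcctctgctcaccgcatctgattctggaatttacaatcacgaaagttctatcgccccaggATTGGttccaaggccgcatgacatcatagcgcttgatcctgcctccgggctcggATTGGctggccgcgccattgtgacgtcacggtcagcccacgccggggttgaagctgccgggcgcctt
Pnpla3: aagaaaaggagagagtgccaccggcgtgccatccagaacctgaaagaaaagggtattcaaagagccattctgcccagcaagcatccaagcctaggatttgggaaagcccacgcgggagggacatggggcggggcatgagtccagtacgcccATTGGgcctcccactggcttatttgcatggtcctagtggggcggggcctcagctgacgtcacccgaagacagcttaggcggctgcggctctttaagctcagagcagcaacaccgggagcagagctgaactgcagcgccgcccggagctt
Fasn held 3 CCAAT matches, of which 2 overlap in CCAATTGG, Elovl5 held 2 beside its E-box, and Acly and Pnpla3 held 1 each.

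DMSO mice varied more than CBZ mice at most members. The SD was larger in DMSO than in CBZ for 23 of 33 members and for 50.1% of all genes tested, and the median SD over members was 0.17 in CBZ livers and 0.23 in DMSO livers. DMSO replicate 2 was the lowest of the 6 mice for 16 of 33 members, where it was lowest for 14.1% of all genes tested. DMSO replicate 1 was the highest of the 6 mice for 10 members and for 19.2% of all genes tested. The order DMSO replicate 1, then 3, then 2 was seen for 16 of 33 members and for 11.6% of all genes tested. These members include Fasn, Acaca, Acacb, Acly, Pklr, Thrsp, Elovl5 and Elovl6. The pattern was noticed in these values, so it is given as a description, and members are not independent of each other.

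Other genes of lipid synthesis, storage and its regulation, 54 listed and 50 kept, had 25 higher and 25 lower in CBZ, a median log2 fold change of -0.0001 and no call. At an unadjusted limma p under 0.05, 3 of the 50 were higher and 1 was lower, where 5.00% and 3.96% of all genes tested were. Groups did not overlap for 3 that were higher and 2 that were lower, where 6.27% and 6.65% of all genes tested did not. The 6 genes named next were picked as those with the smallest p. Angptl8, a feeding-induced inhibitor of lipoprotein lipase, measured 3.77, 4.14 and 4.30 in the CBZ livers and 4.85, 5.10 and 5.03 in the DMSO livers. The groups lay well apart, at -0.92 ± 0.17 (SE, n = 3 each; limma adjusted p = 0.124). Insig2, which retains SREBP precursors in the endoplasmic reticulum, measured 6.68, 7.34 and 6.93 in the CBZ livers and 5.95, 5.80 and 6.15 in the DMSO livers. These groups were also apart, at 1.02 ± 0.19 (limma adjusted p = 0.135). The droplet protein Hilpda differed by 0.67 ± 0.24 and the lipin Lpin3 by 0.42 ± 0.14, both without overlap. The NADPH-producing enzyme Pgd differed by 0.32 ± 0.15, with overlap, and the mitochondrial fatty acid synthesis enzyme Oxsm by -0.26 ± 0.14, without overlap.

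**Figure D4:**
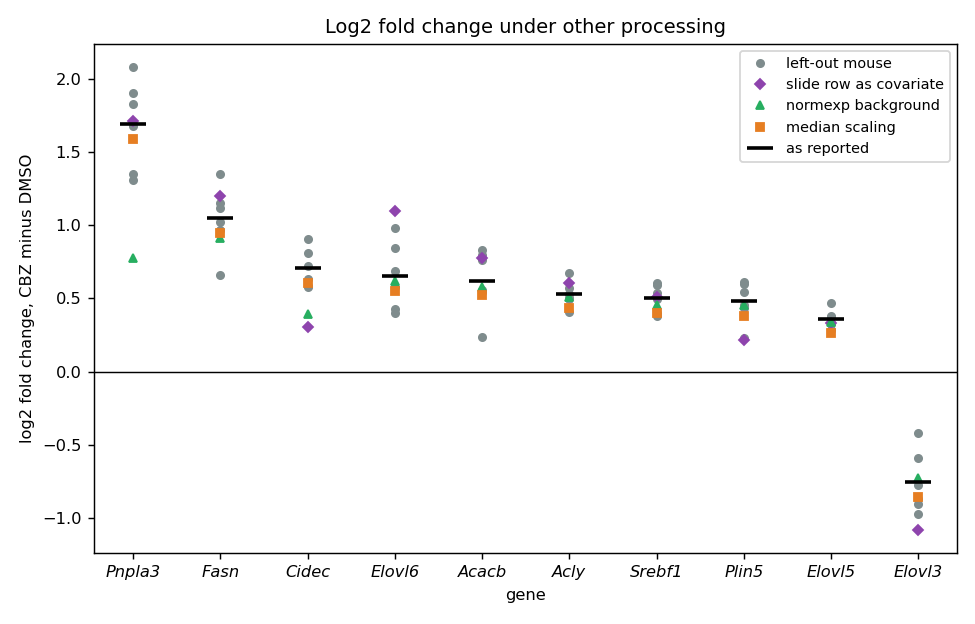
Log2 fold change (CBZ minus DMSO, y axis) of 10 members (x axis) as reported and under other processing, with 1 grey point for each left-out mouse. Pnpla3 is at 0.78 with normexp background correction, and none of the 10 genes crosses 0 under the settings drawn.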

How the data were processed

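Whole-liver RNA of 6 mice was read from 1-colour arrays, 1 per mouse, grouped by the labels. RNA was labelled with Cy3, per the labels' protocols. The authors read the scans in Agilent Feature Extraction 10.7.3.1 (protocol GE1_107_Sep09), per the file headers, and the deposited intensity is background-subtracted. The authors' deposited table holds the ratio of this intensity to its array median, as recomputing it showed.

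Control spots and outlier spots (114 to 126 per array) were left out, log2 intensity was scaled by the array's 75th percentile, and spots of a probe were averaged. A probe stayed in if every array of one or both groups had it well above background (22377 probes). CBZ and DMSO were compared with the limma package (3.58.1; R 4.3.3), by a two-sided moderated test without covariates, and p-values were adjusted by Benjamini-Hochberg across the 22377 probes. The fit was tested on simulated data. Member probes kept the gene names of the array file. Other names came from RefSeq (GRCm38.p6) where a probe matched it, and from the array file for the remaining 24263 probes. Probe coordinates are the array design's, on mm9.

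All 35 members are described. Values per mouse are given for members whose groups do not overlap, those with a log2 fold change of at least 0.5 in size and 9 central genes, and, of the other pathway genes, for the leading ones among the 6 with the smallest p. Members and lists were chosen with earlier results of these data known. Labels do not say more of the mice than that they are separate, so p-values measure the spread between them. Under median scaling and the authors' table, p-values rest instead on a variance common to all probes. Alternatives were normexp (offset 50), quantile, median and detected-spot scaling, other filters, an intensity trend, the authors' table, a replicate block, the slide row, the mean of a gene's probes and leaving out each mouse.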

Additional observations from a re-analysis of the deposited data

How the results depend on the processing

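No member was called with the report's processing, and 1 was called (Pnpla3, higher in CBZ) with median scaling, with the authors' table and with the mean of a gene's probes; its log2 fold change was 1.59, 1.59 and 1.51 there. Under median scaling and the authors' table, which is the same scaling, the fit used a variance common to all probes. Pnpla3 passed the filter through the CBZ group, so its calls are a description only. The members whose groups do not overlap numbered 9, 2 with median scaling and with the authors' table, and 9 to 17 when each mouse was left out in turn, with 17 without DMSO replicate 1. Smaller groups separate more often: the shares over all genes, higher and lower in CBZ, were 6.27% and 6.65% as reported, 1.97% and 3.56% with median scaling, and 12.6% and 9.90% without DMSO replicate 1. The labels do not say whether replicate numbers pair the mice. Deviations of same-numbered mice correlated at -0.237, 0.016 and 0.18, and those of other pairs at -0.353 to 0.38, which cannot settle it. The replicate block called 0 members, and Pnpla3 had a limma adjusted p of 0.347 with it. All genes called numbered 8 higher and 1 lower as reported, 58 and 44 with normexp, 63 and 71 with an intensity trend, 44 and 45 with median scaling, 23 and 7 with the filter on all 6 arrays, 10 and 1 with the mean of a gene's probes, 6 and 1 with the replicate block, 3 and 1 with quantile normalisation, 3 and 0 with scaling over detected spots, 2 and 2 with the slide row, and 0 and 0 with no filter. They numbered 16 and 5 without CBZ replicate 1, 0 and 0 without CBZ replicate 2 and without DMSO replicate 3, 1 and 0 without CBZ replicate 3 and without DMSO replicate 1, and 1 and 2 without DMSO replicate 2.

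Log2 fold changes that changed sign were those of members at -0.02 to 0.17 as reported, and the cause was not tested. The highest of these, Fads1, stood at the median of all members. With median scaling and the authors' table, Elovl1 was at -0.0041, Elovl2 at -0.063, Fads2 at -0.087, Gpam at -0.030, Lpin1 at -0.010, Lpl at -0.030 and Slc25a1 at -0.071. With quantile normalisation, Agpat2 was at 0.029, Dgat2 at 0.012 and Lpin2 at 0.016. With scaling over detected spots, Agpat2 was at 0.018, Dgat2 at 0.013, Lpin2 at 0.013 and Mttp at 0.0017. With normexp, Fads2 was at -5.06e-05 and Slc25a1 at -0.014. With the slide row as a covariate, Dgat2 was at 0.014, Elovl2 at -0.057, Gpam at -0.094, Lpin2 at 0.17 and Plin2 at -0.094. With the mean of a gene's probes, Lpin1 was at -0.12 and Lpin2 at 0.32. Leaving out each mouse in turn gave -0.074 to 0.041 for Agpat2, -0.10 to 0.041 for Dgat2, -0.092 to 0.12 for Elovl2, -0.072 to 0.33 for Fads1, -0.21 to 0.14 for Fads2, -0.096 to 0.22 for Gpam, -0.13 to 0.29 for Lpin1, -0.12 to 0.12 for Lpin2, -0.036 to 0.19 for Lpl, -0.061 to 0.018 for Mttp and -0.030 to 0.072 for Slc25a1. Signal over background limits what the Pnpla3 probes can show.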
